A study of Mus musculus with 11 samples.

Results

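Bone marrow skeletal stem cells (BM-SSCs) were compared with Osterix-positive (Osx+) cells on Affymetrix mouse arrays. The comparison took the 2 arrays titled Mx1+Nes+ BM SSCs and the 2 arrays titled Osx+ cells, 4 of the 11 arrays in the series, and all probe sets other than the manufacturer's controls. BM-SSCs came from mice that carried Mx1-Cre, a Rosa-Tomato reporter and Nestin-GFP, and that had received lethal irradiation, a wild-type marrow transplant and pIpC, a synthetic double-stranded RNA that switches on the Mx1 promoter. They were sorted from bone marrow as CD45-, CD31-, Ter119-, CD105+, CD140a+, Mx1+ and Nes+. Osx+ cells were sorted as CD45-, CD31-, Ter119- cells with Osterix-driven GFP, with neither CD105 nor CD140a in the gate, and their source field names periosteal tissue; the same field stands on the Nes+ BMSC array, whose title says bone marrow, so the tissue of the Osx+ cells is uncertain. The BM-SSC donors were irradiated at 4 weeks of age and given pIpC weeks later. The methods used here do not say whether the Osx+ donors were irradiated, transplanted or given pIpC, nor their age or strain. Population, reporter, tissue, gate, treatment, age and strain of the mice therefore cannot be told apart in this comparison. Each array was described as a biological repeat of cells from male and female mice, used without culture. The other 7 arrays (CD45+ cells, CD51+ BMSCs, periosteal SSCs called P-SSCs, and a single array of Nes+ BMSCs) served to estimate the spread and for reference.

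Skeletal stem cells of the marrow are stromal cells that can form bone, cartilage and fat, and many of them express the leptin receptor and the niche factors that hold and feed blood stem cells. Osterix, encoded by Sp7, is a transcription factor that committed bone-forming cells need, and it is also made by maturing chondrocytes of the growth plate. Chondrocytes deposit a matrix of type II, IX and XI collagen and the proteoglycan aggrecan under the control of Sox9, and switch to type X collagen when they enlarge before bone replaces them.

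The 4 arrays were not of equal quality. The interquartile range of the log2 values reached 3.15 for array 1 of the BM-SSCs but only 1.98 for their array 2, compared with 3.13 and 3.33 on the Osx+ arrays. The 2 BM-SSC arrays correlated at r = 0.771 across probe sets, and the 2 Osx+ arrays at r = 0.985; genes are not independent replicates, and these values only describe the arrays. BM-SSC array 2 also read the bioB hybridisation control at 12.31, against 6.51 on BM-SSC array 1. Of 18193 genes, 3348 (18.4%) lay more than 2 log2 units apart between the BM-SSC arrays and 47 (0.258%) between the Osx+ arrays. Genes with an Osx+ mean of 8 to 10 had a median difference from Osx+ cells of -0.23 on array 1 and -2.31 on array 2, and those with an Osx+ mean under 4 had 0.03 and 0.82. Strongly expressed genes thus read low and weakly expressed genes read high on array 2, so values are given per array and differences for array 1 alone are set beside those with both arrays.

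With all arrays, limma called 14 of 45037 probe sets higher in BM-SSCs (0.0311%) and 263 lower (0.584%) at an adjusted p under 0.05. Without array 2 of the BM-SSCs, and array 2 of the P-SSCs, which had a similarly narrow range, 3221 probe sets were higher (7.15%) and 3358 lower (7.46%). In that fit array 1 stands alone for the BM-SSCs and is assumed to vary like the arrays of the other groups. Its shared spread also lacks P-SSC array 2, so its calls do not come from leaving out BM-SSC array 2 alone. With BM-SSC array 2 alone left out, 35 probe sets were higher and 112 lower, and with P-SSC array 2 alone left out, 161 were higher and 540 lower. All 14 and all 263 probe sets called with every array were also called in the same direction without array 2 of both, which is what "without array 2" and the adjusted p for array 1 alone mean from here on. Leaving out Osx+ array 1 or Osx+ array 2 instead left 21 and 19 probe sets lower and 0 and 1 higher, and leaving out BM-SSC array 1 gave 1644 and 545. With each gene represented by its brightest probe set on average, 8 of 18193 genes were higher (0.044%) and 142 lower (0.781%) with all arrays, and 1629 (8.95%) and 1767 (9.71%) without array 2. The median difference over all genes was 0.04 with both arrays, -0.01 for array 1 and 0.04 for array 2. At an unadjusted p under 0.05 in limma with all arrays, 1315 of the 45037 probe sets were higher and 2847 lower. All differences below are BM-SSCs minus Osx+ cells in log2 units, ± the standard error of the fit over all arrays, with n = 2 against 2.

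**Figure D1:**
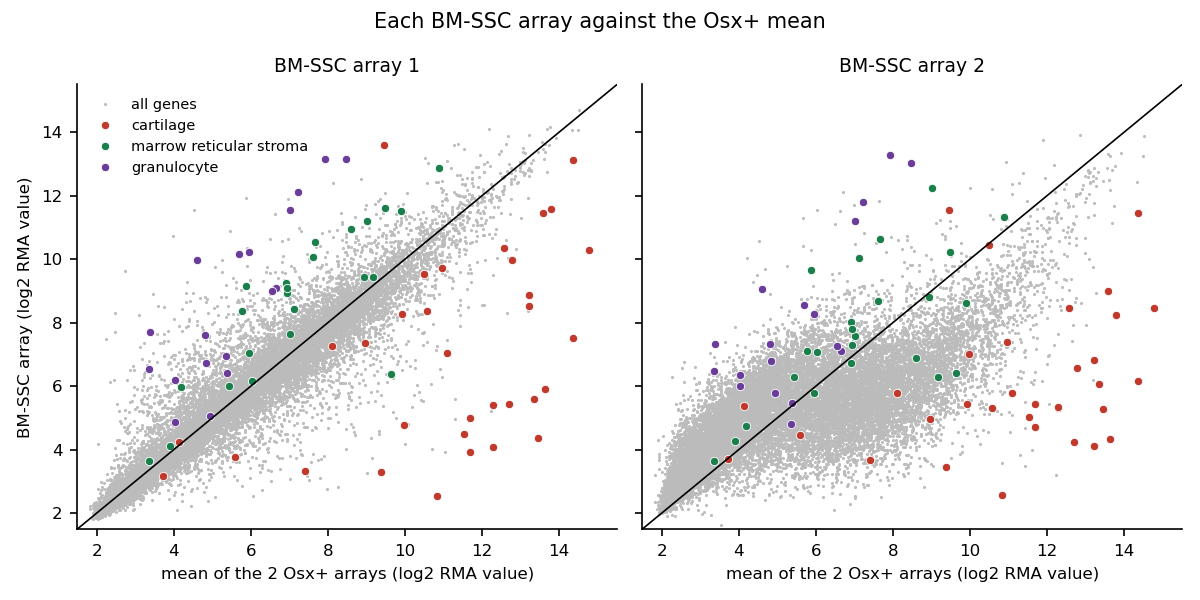
Log2 RMA value of each of 18193 genes on BM-SSC array 1 (left) and BM-SSC array 2 (right) against the mean of the 2 Osx+ arrays; the line marks equal values, and cartilage, marrow reticular stroma and granulocyte genes are coloured. Most genes follow the line on array 1 and flatten on array 2, while the cartilage genes lie far below the line and the granulocyte genes above it on both.

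Lepr and Sp7 were examined as a check of the labels, Lepr as a marker of marrow stromal cells that no sort used and Sp7 as the gene whose promoter drives the Osx+ reporter. Lepr, the leptin receptor, read 9.24 and 8.03 in BM-SSCs and 6.55 and 7.28 in Osx+ cells. Both BM-SSC arrays were above both Osx+ arrays, and the difference was 1.72 ± 1.89 with all arrays (adjusted p = 0.699) and 2.33 for array 1 alone (adjusted p = 0.00339). Of the 3 other probe sets for Lepr, 2 were also called higher without array 2, and the remaining one read 4.45 and 6.38 against 4.55 and 4.45. Sp7 read 8.15 and 7.11 in BM-SSCs and 8.93 and 8.58 in Osx+ cells. The BM-SSC arrays were below the Osx+ arrays, but the difference of -1.12 ± 0.417 was not called (adjusted p = 0.455), nor was -0.60 for array 1 alone (adjusted p = 0.121). Lepr was thus called higher in BM-SSCs only when array 2 was left out, and Sp7, the gene that marks the Osx+ sort, was not separated from its level in BM-SSCs in either fit.

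The genes of the BM-SSC gate and reporters were uneven. Pdgfra, which encodes CD140a, read 10.95 on BM-SSC array 1 but 6.90 on array 2, with 8.53 and 8.65 in Osx+ cells. Eng, which encodes CD105, read 7.63 and 7.57 against 6.97 and 7.08, a difference of 0.58 ± 0.354 (adjusted p = 0.644; array 1 alone 0.61). Nes, whose promoter drives the GFP of the BM-SSC sort, read 6.17 and 7.08 against 6.44 and 5.65, so that the groups overlapped. Mx1, an interferon-induced gene, read 4.92 and 4.28 against 3.57 and 3.49. Pdgfra and Mx1 were called higher without array 2 only (adjusted p = 0.000393 and 0.00305). The reporters themselves, Tomato and GFP, are not mouse genes and were not analysed here.

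The cartilage genes made up the clearest difference among the lists. Because the lists were chosen with earlier results of these data known, their counts beside all genes are description only. Of 33 cartilage genes measured, 15 were lower in BM-SSCs with all arrays and none was higher, beside 0.781% and 0.044% of all genes. Without array 2, 29 were lower and 1 was higher, and 12 were lower with BM-SSC array 2 alone left out. With Osx+ array 1 or Osx+ array 2 left out, 8 and 7 were lower. In 29 of the 33 both BM-SSC arrays read below both Osx+ arrays, beside 24.7% of all genes. Strongly expressed genes tend to read low on array 2, so the share of 24.7% is not matched for level. The median difference over the list was -4.52, with -4.08 for array 1 and -5.55 for array 2, against 0.04 over all genes. Among the 807 genes with an Osx+ mean of 10 or more, where 23 of the cartilage genes lie, array 1 had a median difference of -0.35 and array 2 of -2.34, and the 23 cartilage genes had -4.72 and -6.39. Of those 807 genes, 38 were called lower with all arrays (4.71%), and 14 of the 38 were cartilage genes. The array mixes many cells, so fewer cells of a type and less RNA per cell cannot be told apart here or in any result below.

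Type II collagen, encoded by Col2a1, is the main collagen of hyaline cartilage. It read 10.28 and 8.46 in BM-SSCs and 14.81 and 14.75 in Osx+ cells. Both Osx+ arrays lay far above the higher BM-SSC array, and the difference was -5.41 ± 0.780 (adjusted p = 0.0324; array 1 alone -4.50). The chains of type IX collagen, which coats the type II fibrils, were further apart. Col9a1 read 7.53 and 6.16 against 14.30 and 14.43 (-7.52 ± 0.638, adjusted p = 0.00399). Col9a2 read 4.50 and 5.04 against 11.37 and 11.70 (-6.76 ± 0.559, adjusted p = 0.00369). Col9a3 read 5.60 and 6.06 against 13.16 and 13.55 (-7.53 ± 0.630, adjusted p = 0.00388). All 3 chains were lower on both BM-SSC arrays, with array 1 differences of -6.83, -7.03 and -7.76. Col10a1, the collagen of hypertrophic chondrocytes, read 4.10 and 5.30 against 12.25 and 12.31 (-7.57 ± 0.486, adjusted p = 0.00136; array 1 alone -8.18). The type XI chains Col11a1 and Col11a2, which many fibroblasts also make, read 11.59 and 8.25 against 13.83 and 13.77, and 9.96 and 6.56 against 12.58 and 12.97. These were not called with all arrays (adjusted p = 0.391 and 0.171) and were lower without array 2 (adjusted p = 0.00243 and 0.00595).

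Of 16 other cartilage matrix genes, 8 were lower with all arrays. Snorc, a chondrocyte transmembrane proteoglycan, was among the genes furthest apart. It read 4.38 and 5.28 against 13.63 and 13.27, a difference of -8.62 ± 0.513 (adjusted p = 0.00133) and of -9.07 for array 1. Its BM-SSC values lay near the medians of those arrays, 4.53 and 4.83. With no detection calls, a reading at that level is not shown to be above background. The size of such a difference is therefore uncertain, here and for other genes that read this low. The fitted size also includes array 2 with its narrow range. Cnmd, which encodes the angiogenesis inhibitor chondromodulin, read 5.90 and 4.34 against 13.65 and 13.63 (-8.52 ± 0.531, adjusted p = 0.00136; array 1 alone -7.74). Matn1 and Matn3 encode matrilins, proteins that link collagen fibrils to proteoglycans. Matn1 read 2.53 and 2.57 against 10.54 and 11.14 (-8.29 ± 0.463, adjusted p = 0.00122; array 1 alone -8.31). Matn3 read 5.45 and 4.25 against 12.61 and 12.81 (-7.86 ± 0.497, adjusted p = 0.00136; array 1 alone -7.26). The 2 BM-SSC arrays read nearly the same value for Matn1. Acan, the aggrecan core protein, read 8.51 and 6.84 against 13.24 and 13.21 (-5.55 ± 0.703, adjusted p = 0.0201; array 1 alone -4.72). Epyc, a small leucine-rich proteoglycan, read 5.41 and 5.36 against 12.16 and 12.41 (array 1 alone -6.88). Mia and Scrg1, both chondrocyte-enriched transcripts, read 3.94 and 4.72 against 11.60 and 11.77, and 5.01 and 5.43 against 11.59 and 11.76 (array 1 alone -7.74 and -6.66). These 3 fell by 6.90, 7.35 and 6.46 with all arrays.

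Other members of the matrix group were present in BM-SSCs. Comp, a cartilage and tendon protein, read 13.11 and 11.46 against 14.36 and 14.38, and Chad read 11.45 and 8.99 against 13.63 and 13.56. Neither was called with all arrays (adjusted p = 0.706 and 0.548), while both were lower without array 2 (adjusted p = 0.00198 and 0.00741). Hapln1, the link protein that ties aggrecan to hyaluronan, read 8.87 and 4.13 against 13.23 and 13.20, a difference of -6.71 ± 1.55 that was not called for this probe set (adjusted p = 0.167; array 1 alone -4.34). The 3 dimmer probe sets of Hapln1 were all called lower with all arrays, by -7.96, -7.42 and -7.27 (adjusted p = 0.00299, 0.0159 and 0.0274). Prg4, the joint lubricant lubricin, ran the other way. It read 13.60 and 11.55 in BM-SSCs and 9.73 and 9.18 in Osx+ cells, a difference of 3.12 ± 2.79 (adjusted p = 0.667) that was called without array 2 (4.14, adjusted p = 0.000137).

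Among the transcription factors, Foxa3, a forkhead factor of hypertrophic chondrocytes, was lower with all arrays. It read 3.29 and 3.44 against 9.23 and 9.53 (-6.01 ± 0.426, adjusted p = 0.00194; array 1 alone -6.09). Sox9, the master regulator of chondrocytes, read 8.36 and 5.31 against 10.66 and 10.50. That difference of -3.75 ± 1.37 was not called (adjusted p = 0.444), and for array 1 alone it was -2.22 (adjusted p = 0.000308). Sox6, a partner of Sox9, read 7.37 and 4.96 against 9.12 and 8.82, and Sox5 7.25 and 5.80 against 8.17 and 8.03. On array 1 both Sox9 and Sox6 lay below the Osx+ arrays, as on array 2. Fgfr3, a receptor that restrains chondrocyte growth, read 7.04 and 5.78 against 11.19 and 11.01 (-4.69 ± 0.640, adjusted p = 0.0271; array 1 alone -4.06). Ihh, the hedgehog ligand of prehypertrophic chondrocytes, read 3.32 and 3.67 against 7.54 and 7.26 (-3.91 ± 0.661, adjusted p = 0.0597; array 1 alone -4.08, adjusted p = 3.08e-05).

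**Figure D2:**
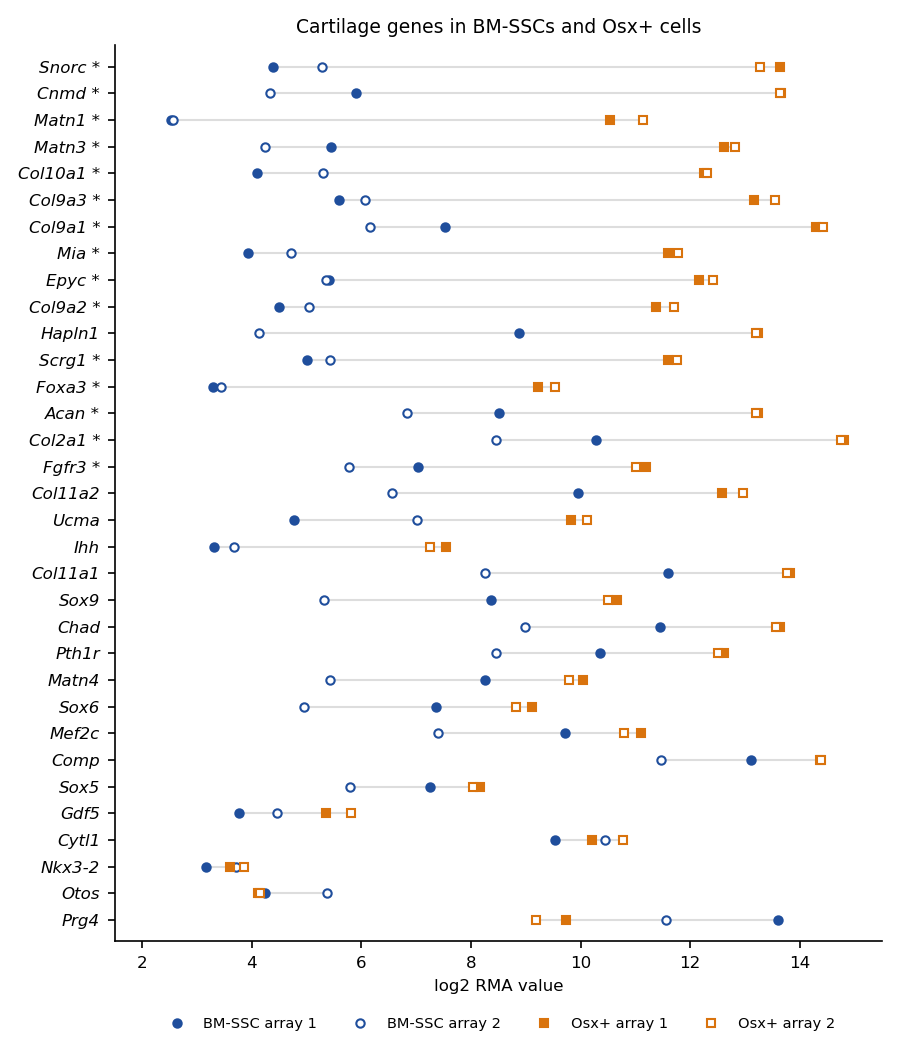
Log2 RMA value of the 33 cartilage genes on each of the 4 arrays, ordered by the difference between BM-SSCs (circles) and Osx+ cells (squares), with array 1 filled and array 2 open; an asterisk marks the 15 genes called with all arrays. The Osx+ arrays nearly coincide, the BM-SSC arrays lie to the left in all but the last few rows, and Prg4 is reversed.

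The promoters of the called cartilage genes are shown because these genes moved together. RefSeq entries of 300 bases (250 before and 50 after the start site, GRCm38.p6) were matched by symbol for 11 of the 15 genes. The following are written 5′ to 3′ along the gene: Cnmd (chr14:79662134-79662433, minus strand) and Matn1 (chr4:130944135-130944434, plus strand) as the genes with the largest fitted differences that had an entry, and Epyc (chr10:97643818-97644117, plus strand) as the gene that held a SOX core motif. Capitals mark matches to AACAAT, the core that SOX factors bind, or to TATAAA, the TATA box, on either strand (ATTGTT and TTTATA as reverse complements).
Cnmd promoter: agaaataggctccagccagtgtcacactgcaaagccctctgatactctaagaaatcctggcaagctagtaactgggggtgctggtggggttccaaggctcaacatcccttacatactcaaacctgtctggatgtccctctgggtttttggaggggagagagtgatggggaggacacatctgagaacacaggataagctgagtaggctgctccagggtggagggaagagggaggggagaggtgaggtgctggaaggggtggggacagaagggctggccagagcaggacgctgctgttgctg
Matn1 promoter: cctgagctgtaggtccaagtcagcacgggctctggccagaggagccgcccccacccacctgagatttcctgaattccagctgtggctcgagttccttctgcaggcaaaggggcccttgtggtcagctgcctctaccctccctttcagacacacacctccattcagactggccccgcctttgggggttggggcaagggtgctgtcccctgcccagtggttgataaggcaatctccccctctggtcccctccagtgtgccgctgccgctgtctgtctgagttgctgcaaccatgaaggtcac
Epyc promoter: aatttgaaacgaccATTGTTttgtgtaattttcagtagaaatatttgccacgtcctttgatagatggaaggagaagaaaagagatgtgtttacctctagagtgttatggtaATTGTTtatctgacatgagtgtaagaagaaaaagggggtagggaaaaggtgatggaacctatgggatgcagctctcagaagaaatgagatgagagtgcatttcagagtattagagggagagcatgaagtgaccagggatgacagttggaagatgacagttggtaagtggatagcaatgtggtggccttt
Epyc held ATTGTT at 236 and at 139 bases before its start site. The SOX core was in 1 of the 11 genes and in 10.7% of all 32851 promoter entries, and the TATA box was in 2 of the 11 genes and in 13.6% of entries. No match to one motif overlapped a match to the other, and the windows of Cnmd and Matn1 hold neither set of letters.

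Genes that build and sulfate the sugar chains of cartilage proteoglycans followed in part. The 16 measured had a mean level of 8.93 and 9.09 on the Osx+ arrays. Their median difference was -1.02 for array 1 and -3.33 for array 2. All genes with an Osx+ mean of 8 to 10 had -0.23 and -2.31, and 2.42% of them were called lower with all arrays. Of the 16, 3 were lower and none was higher with all arrays, beside 0.781% and 0.044% of all genes. With BM-SSC array 2 alone left out 2 were lower, and with either Osx+ array left out 0 were. Chst11, a chondroitin 4-O-sulfotransferase, read 8.49 and 6.07 against 11.65 and 11.61 (-4.35 ± 0.682, adjusted p = 0.0450; array 1 alone -3.14). Chsy3, a chondroitin synthase, read 3.74 and 2.85 against 7.06 and 6.55 (-3.51 ± 0.390, adjusted p = 0.0124; array 1 alone -3.06). Csgalnact1, which starts chondroitin chains, read 6.70 and 6.51 against 9.65 and 9.95 (-3.20 ± 0.439, adjusted p = 0.0274; array 1 alone -3.10). These 3 had BM-SSC arrays clearly below the Osx+ arrays. The sulfate supply genes Slc26a2 and Papss2 differed by -3.65 and -3.50 for array 1 alone (adjusted p = 3.08e-05 and 6.85e-05) and were not called with all arrays (adjusted p = 0.185 and 0.266). Dimmer probe sets of both genes were called lower with all arrays, 1 of Slc26a2 (adjusted p = 0.0442) and 2 of Papss2 (adjusted p = 0.0156 and 0.0351).

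Of 24 genes for collagen processing and secretion, 2 were lower with all arrays, and 0 with either Osx+ array left out. P3h2, a prolyl 3-hydroxylase, read 6.03 and 5.83 against 10.17 and 10.46 (-4.38 ± 0.384, adjusted p = 0.00438; array 1 alone -4.29). Loxl4, a lysyl oxidase family member, read 5.82 and 6.06 against 10.20 and 10.52 (-4.42 ± 0.332, adjusted p = 0.00255; array 1 alone -4.54). The list's median difference was -0.91 for array 1 and -3.42 for array 2. Its mean level on the Osx+ arrays was 10.01 and 10.14. All genes with an Osx+ mean of 10 to 12 had medians of -0.34 and -2.42. Of those genes, 3.91% were called lower with all arrays, against 0.781% of all genes.

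Of 20 osteoblast and osteocyte genes measured, 2 were lower with all arrays, beside 0.781% of all genes. With BM-SSC array 2 alone left out 1 was lower, and with either Osx+ array left out 0 were. Without array 2, 3 were higher and 2 lower, near the 8.95% and 9.71% of all genes. The list's median difference was 0.06 for array 1 and -1.33 for array 2. Col1a1, the main collagen of bone, read 13.34 and 12.39 in BM-SSCs and 13.33 and 12.90 in Osx+ cells. Ibsp, bone sialoprotein, read 12.63 and 11.67 against 12.59 and 12.52. For array 1 these differed from the Osx+ mean by 0.23 and 0.07 (adjusted p = 0.593 and 0.853), and neither gene was called in either fit.

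The 2 called members both act in mineral deposition. Alpl, alkaline phosphatase, which frees phosphate for mineral, read 9.29 and 7.97 against 11.53 and 11.87 (-3.07 ± 0.461, adjusted p = 0.0381; array 1 alone -2.41). Smpd3, a sphingomyelinase needed for mineralisation of bone and cartilage, read 7.91 and 5.51 against 11.54 and 11.30 (-4.71 ± 0.715, adjusted p = 0.0393; array 1 alone -3.51). Dmp1, a matrix protein of osteocytes, and Mmp13, a collagenase, lay the other way. Dmp1 read 13.02 and 11.28 against 10.75 and 10.42, and Mmp13 read 13.62 and 12.71 against 11.10 and 11.64. Both BM-SSC arrays were above both Osx+ arrays for these genes, but they were called without array 2 only (2.43, adjusted p = 0.000324, and 2.25, adjusted p = 0.00107). Runx2, Spp1 and Bglap were not analysed here.

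Genes of the marrow reticular stroma, the cells that form the niche of blood stem cells, were called in neither direction with all arrays. In limma with all arrays, 1 of the 24 measured was higher and 1 lower at an unadjusted p under 0.05. With BM-SSC array 2 alone left out, the list was again called in neither direction. In 15 of the 24 both BM-SSC arrays read above both Osx+ arrays, and in 1 both read below, beside 20.1% and 24.7% of all genes. The list's median difference was 1.88 for array 1 and 0.56 for array 2. Cxcl12, the chemokine that retains blood stem cells, read 11.21 and 12.23 in BM-SSCs and 8.63 and 9.42 in Osx+ cells. Apoe, an apolipoprotein, read 9.15 and 9.65 against 5.69 and 6.06. Hp, haptoglobin, read 10.53 and 10.65 against 7.14 and 8.21. In all 3 the 2 groups stood well apart on each array, with array 1 differences of 2.19, 3.27 and 2.85 (adjusted p = 0.00339, 0.000111 and 0.00244 without array 2).

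The adjusted p of these genes with all arrays (0.648, 0.369 and 0.599) came with standard errors of 1.93, 1.14 and 1.42, to which the P-SSC arrays contributed through the shared variance. Cxcl12, for example, read 12.43 on P-SSC array 1 and 5.06 on P-SSC array 2. Kitl, the ligand of the stem cell receptor Kit, read 8.92 and 7.30 against 6.43 and 7.47, so array 2 fell inside the Osx+ range. Grem1, a BMP antagonist that marks skeletal stem cells, read 8.37 and 7.12 against 5.98 and 5.58 (1.97 ± 1.15, adjusted p = 0.638; array 1 alone 2.60, adjusted p = 0.000294). The exception was Chrdl1, another BMP antagonist. It read 6.39 and 6.40 against 9.66 and 9.64, and its difference of -3.25 ± 1.15 was called without array 2 (adjusted p = 4.8e-05) but not with all arrays (adjusted p = 0.425).

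**Figure D3:**
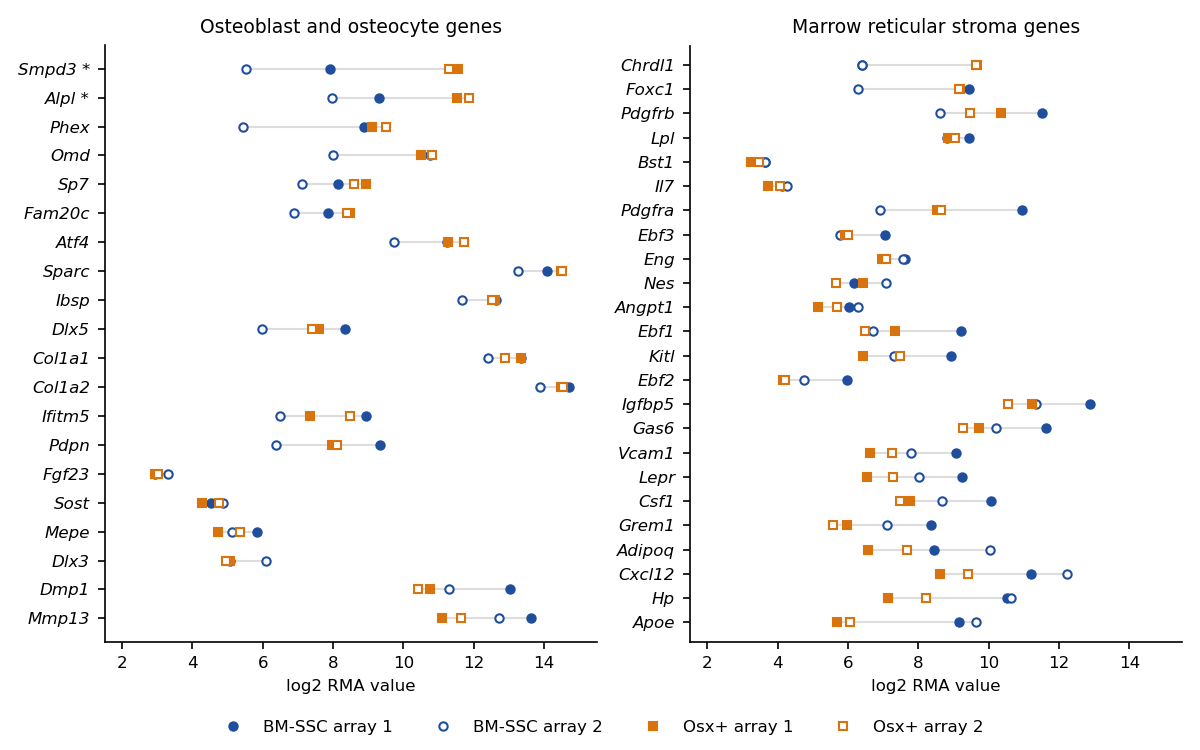
Log2 RMA value of 20 osteoblast and osteocyte genes (left) and 24 marrow reticular stroma genes (right) on each of the 4 arrays, ordered by the difference between BM-SSCs (circles) and Osx+ cells (squares), with array 1 filled and array 2 open; an asterisk marks genes called with all arrays. Smpd3 and Alpl carry the asterisks, Col1a1 and Ibsp coincide on array 1, and Apoe, Hp and Cxcl12 lie to the right on both BM-SSC arrays.

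Other mesenchymal lists gave few calls. None of 15 adipocyte genes was called with all arrays (1 was higher at an unadjusted p under 0.05 in limma). The list's median difference was 0.41 for array 1 and 0.73 for array 2. Fabp4, the fatty acid binding protein of fat and capillary cells, read 10.63 and 11.11 against 7.49 and 5.50 (array 1 alone 4.13, adjusted p = 0.00601). Adipoq, adiponectin, which marrow stromal cells also make, read 8.44 and 10.05 against 6.56 and 7.69, and its array 1 difference of 1.32 was not called (adjusted p = 0.0678). Of 25 fibroblast, tendon and periosteum genes, none was called with all arrays (1 higher at an unadjusted p under 0.05 in limma). The list's median difference was 1.39 for array 1 and -0.82 for array 2. Cilp, a protein of cartilage and fibrous tissue, read 11.94 and 10.28 against 4.45 and 7.28, the largest difference of the list (5.24 ± 2.31, adjusted p = 0.550; array 1 alone 6.07, adjusted p = 0.00429). Angptl7, an angiopoietin-like secreted protein, read 8.66 and 7.41 against 5.15 and 4.55 (array 1 alone 3.81, adjusted p = 0.000223). Rgs5, a pericyte regulator of G-protein signalling, read 9.02 and 8.62 against 6.85 and 4.62, while Cspg4, the proteoglycan NG2, read 9.70 and 6.46 against 11.67 and 11.71. None of the 16 pericyte and smooth muscle genes was called with all arrays (1 each way at an unadjusted p under 0.05 in limma). The list's median difference was -0.01 for array 1 and 0.66 for array 2.

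Of the 8 genes that were higher in BM-SSCs with all arrays, 3 belong to the granulocyte list. Mmp8, neutrophil collagenase, read 6.54 and 6.47 against 3.09 and 3.62 (3.15 ± 0.439, adjusted p = 0.0282; array 1 alone 3.18). Il1b, the inflammatory cytokine interleukin-1 beta, read 7.60 and 7.33 against 5.01 and 4.64 (2.64 ± 0.346, adjusted p = 0.0228; array 1 alone 2.78). Padi4, which citrullinates histones in neutrophils, read 6.21 and 6.01 against 3.85 and 4.22 (2.07 ± 0.312, adjusted p = 0.0381; array 1 alone 2.18). For these 3 genes both BM-SSC arrays were well above both Osx+ arrays. Clec4e, a pattern receptor of myeloid cells, read 6.44 and 5.68 against 3.12 and 3.39 (2.81 ± 0.387, adjusted p = 0.0278; array 1 alone 3.18). Fpr2, a peptide receptor of the same cells, read 6.60 and 6.63 against 4.20 and 4.62 (2.20 ± 0.345, adjusted p = 0.0450; array 1 alone 2.18). Ednrb, the endothelin B receptor of endothelial and neural crest cells, read 5.48 and 5.98 against 3.43 and 2.92 (2.55 ± 0.359, adjusted p = 0.0294; array 1 alone 2.30). Elavl4, a neuronal RNA-binding protein, read 4.83 and 5.02 against 2.72 and 2.55 (2.29 ± 0.288, adjusted p = 0.0201, and array 1 alone 2.19). Its BM-SSC values lay near the medians of those arrays, 4.53 and 4.83, a level not shown to be above background. The other probe sets of Elavl4 were not called in limma with all arrays (adjusted p = 0.415 and 0.345). Ankrd33b read 6.92 and 6.52 against 3.81 and 4.04 (2.79 ± 0.352, adjusted p = 0.0201; array 1 alone 2.99). Other probe sets of Clec4e, Ednrb and Ankrd33b were also not called in limma with all arrays. Their adjusted p was 0.397 for Clec4e, 0.227 and 0.648 for Ednrb, and 0.686 and 0.268 for Ankrd33b. With BM-SSC array 2 alone left out, 1 of the 8 genes, Clec4e, kept its call, and with either Osx+ array left out 0 did.

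The granulocyte list held 18 measured genes, 3 higher with all arrays and 11 without array 2, beside 0.044% and 8.95% of all genes, with none lower. The 3 became 0 with BM-SSC array 2 alone or Osx+ array 1 left out, 1 with Osx+ array 2 left out and 6 with P-SSC array 2 left out. In 13 of them both BM-SSC arrays read above both Osx+ arrays, beside 20.1% of all genes. The mean level of the list was 8.70 and 8.11 on the BM-SSC arrays, but 4.50 and 6.64 on the Osx+ arrays. S100a8 and S100a9 encode calprotectin, an abundant protein pair of neutrophils. S100a8 read 13.14 and 13.02 against 6.81 and 10.14. S100a9 read 13.16 and 13.29 against 6.16 and 9.68. Ngp, a neutrophil granule protein, read 12.13 and 11.80 against 5.55 and 8.91. In each the Osx+ arrays lay far apart, and the differences were called without array 2 only (adjusted p = 0.0248, 0.0194 and 0.0212), with 0.102, 0.121 and 0.285 over all arrays. Mpo, myeloperoxidase of granulocyte precursors, read 9.10 and 7.12 against 4.34 and 8.98, so that Osx+ array 2 reached the BM-SSC level.

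Of 24 leukocyte genes, none was called with all arrays, while 17 were higher in limma at an unadjusted p under 0.05. With BM-SSC array 2 alone left out, the list again had no call. The list's median difference was 1.85 for array 1 and 1.40 for array 2. Tyrobp, an adaptor of myeloid receptors, read 8.11 and 7.73 against 3.23 and 5.58, and Laptm5, a lysosomal protein of blood cells, read 9.41 and 8.03 against 4.60 and 6.47. Ptprc, which encodes the CD45 that both sorts excluded, read 7.42 and 4.90 against 2.42 and 5.07, so array 2 of each group met at the same level. The list's mean level was 6.98 and 6.31 in BM-SSCs and 4.35 and 5.45 in Osx+ cells, below the 10.94 and 10.95 of CD45+ cells. Of 21 monocyte and macrophage genes, none was called with all arrays, and 6 were higher at an unadjusted p under 0.05 in limma. Their median difference was 0.72 for array 1 and 0.91 for array 2. Lyz2, lysozyme, one of these genes, read 9.74 and 9.52 against 5.37 and 7.46 (array 1 alone 3.32). Of 13 B cell genes, 1 was higher without array 2, near the 8.95% of all genes. The part of blood cell RNA in the marrow-derived arrays was not tested.

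In 20 of 22 endothelial genes both BM-SSC arrays read above both Osx+ arrays, beside 20.1% of all genes, although the sorts excluded CD31+ cells. The list's mean level on the Osx+ arrays was 4.16 and 3.95, and its median difference was 1.48 for array 1 and 1.15 for array 2. All genes with an Osx+ mean under 4 had medians of 0.03 and 0.82, and those at 4 to 6 had 0.04 and 0.59. Genes this dim tend to read high on array 2, so the share of 20.1% is not matched for level. None of the 22 was called with all arrays, while 13 were higher and none lower in limma at an unadjusted p under 0.05. Leaving out BM-SSC array 2 alone gave no call in the list either. Kdr, the VEGF receptor VEGFR2, read 7.72 and 7.58 against 5.55 and 5.21 (2.27 ± 0.431, adjusted p = 0.0915; array 1 alone 2.34, adjusted p = 0.000521). Flt1, VEGFR1, read 6.80 and 6.46 against 4.68 and 3.75 (2.42 ± 0.648, adjusted p = 0.260; array 1 alone 2.59, adjusted p = 0.00642). Pecam1, which encodes CD31 itself, read 5.09 and 5.97 against 3.23 and 3.39 (array 1 alone 1.78, adjusted p = 0.000829). Without array 2, all 3 were higher in BM-SSCs. Cdh5, Cldn5 and Stab2, a cadherin, a tight junction protein and a scavenger receptor of endothelium, read 6.94 and 6.46 against 4.14 and 3.34, 7.01 and 6.83 against 4.67 and 4.15, and 6.01 and 6.02 against 3.78 and 3.32 (array 1 alone 3.20, 2.60 and 2.46). The part of endothelial RNA in these values was not tested.

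**Figure D4:**
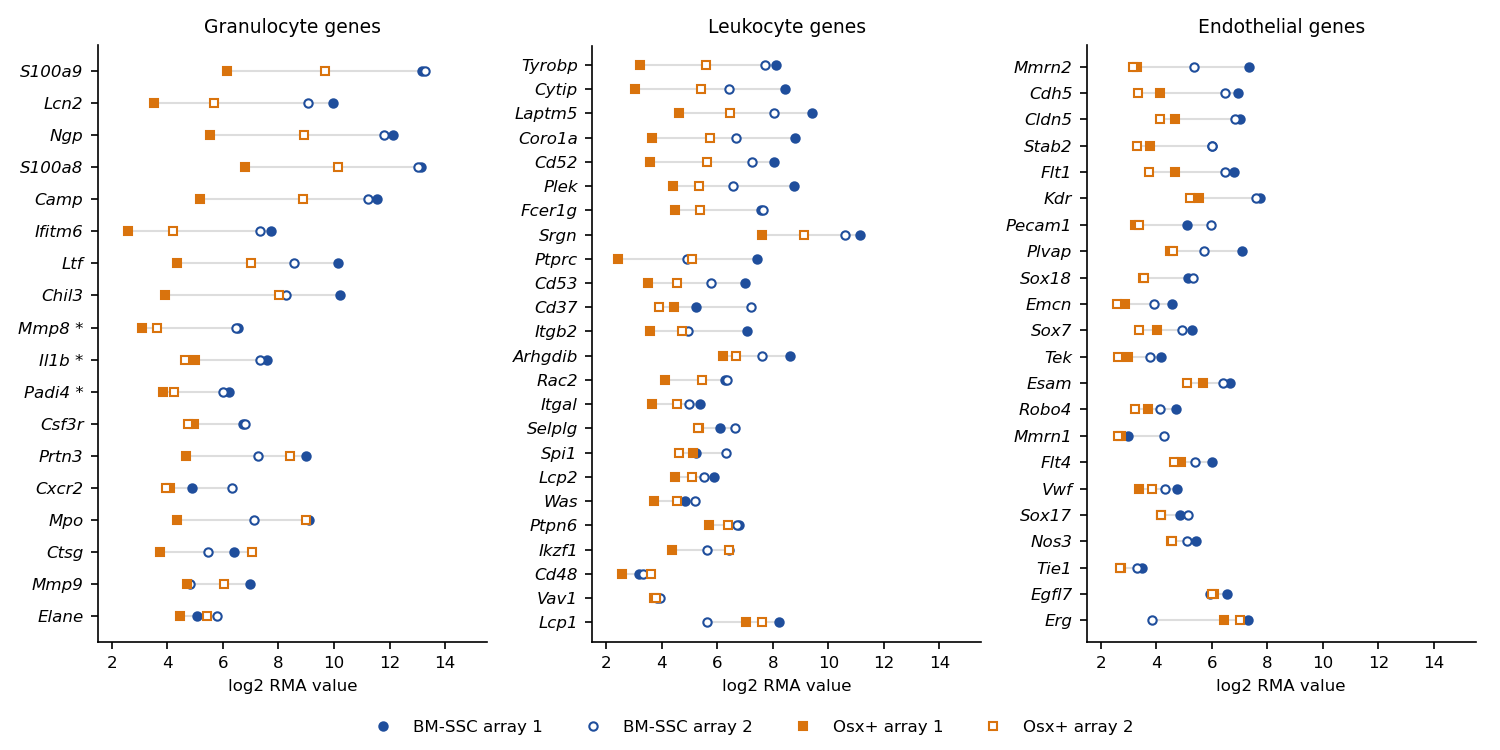
Log2 RMA value of 18 granulocyte, 24 leukocyte and 22 endothelial genes on each of the 4 arrays, ordered by the difference between BM-SSCs (circles) and Osx+ cells (squares), with array 1 filled and array 2 open; an asterisk marks genes called with all arrays. The Osx+ arrays lie far apart for granulocyte genes and close together for endothelial genes, and most BM-SSC values lie to their right.

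The interferon response list, to which Mx1 belongs, had no call with all arrays. Of its 23 genes, 9 were higher in limma at an unadjusted p under 0.05. Rsad2, the antiviral protein viperin, read 9.10 and 7.43 against 5.54 and 5.70 (2.65 ± 0.547, adjusted p = 0.120; array 1 alone 3.48, adjusted p = 0.000144). Usp18, which limits interferon signalling, read 6.26 and 4.79 against 3.14 and 3.64 (array 1 alone 2.87, adjusted p = 0.00027). Trim30a read 5.71 and 5.92 against 4.04 and 3.83 (array 1 alone 1.77, adjusted p = 0.000613). The list's median difference was 1.67 for array 1 and 0.79 for array 2. Of 27 chemokines and cytokines, Il1b alone was higher with all arrays, beside 0.044% of all genes. The median difference over the 27 was 1.78 for array 1 and 1.12 for array 2. Cxcl2, a neutrophil attractant, read 9.61 and 7.41 against 4.20 and 6.29, and Ccl2, a monocyte attractant, read 6.89 and 7.66 against 4.84 and 4.71 (array 1 alone 4.36 and 2.12, adjusted p = 0.00552 and 0.00226). Tnfrsf11b, the decoy receptor osteoprotegerin, read 8.13 and 3.50 against 8.95 and 8.46 and was called in neither fit (adjusted p = 0.638 and 0.171).

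The listed genes of proliferation and sugar metabolism were called in neither direction with all arrays. Of 32 cell cycle genes, none was called with all arrays (9 were lower in limma at an unadjusted p under 0.05), and 9 were lower and none higher without array 2, beside 9.71% and 8.95% of all genes. Of those 9, 8 were among 20 mitosis genes and 1 was among 12 DNA replication genes, the latter near the share of all genes. Cdk1, the mitotic kinase, read 5.72 and 5.19 against 6.65 and 7.47, and Ccnb2, a mitotic cyclin, read 4.74 and 4.58 against 5.94 and 6.55 (array 1 alone -1.34 and -1.50, adjusted p = 0.0483 and 0.0154). Of 13 cell cycle inhibitors, none was called with all arrays. Their median difference was -0.48 for array 1 and -2.54 for array 2. Cdkn1c, the inhibitor p57 of growth plate chondrocytes and quiescent cells, read 8.55 and 6.71 against 12.03 and 11.95 (-4.36 ± 1.22, adjusted p = 0.283; array 1 alone -3.44, adjusted p = 8.12e-05). Gas1, a growth arrest gene that also binds hedgehog ligands, read 12.51 and 10.13 against 8.83 and 8.87 (array 1 alone 3.66, adjusted p = 3.11e-05). Of 21 glycolysis and hypoxia genes, none was called with all arrays (8 were lower at an unadjusted p under 0.05 in limma). Their median difference was -1.14 for array 1 and -2.80 for array 2, with a mean level of 8.64 and 8.75 on the Osx+ arrays. All genes with an Osx+ mean of 8 to 10 had medians of -0.23 and -2.31. Slc2a1, the glucose transporter GLUT1, read 9.08 and 6.07 against 11.28 and 11.14, and Pgk1, a glycolytic kinase, read 9.57 and 7.92 against 11.60 and 11.68 (array 1 alone -2.13 and -2.07, adjusted p = 0.000477 and 0.000302). Car12, a carbonic anhydrase, differed most, at 6.83 and 4.17 against 10.06 and 10.48 (-4.77 ± 0.896, adjusted p = 0.0868; array 1 alone -3.44).

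Without array 2, the signalling lists held genes called in both directions, as did the array as a whole (8.95% higher and 9.71% lower). In the hedgehog and PTHrP list, 3 of 14 genes were higher and 3 lower without array 2, and none was called with all arrays (1 was lower at an unadjusted p under 0.05 in limma). Its lower members were the ligand Ihh, the hedgehog receptor and target Ptch1 and the PTHrP receptor Pth1r, which act together in the growth plate. Ptch1 read 9.05 and 4.63 against 10.32 and 10.36, and Pth1r read 10.35 and 8.46 against 12.62 and 12.50 (array 1 alone -1.29 and -2.21, adjusted p = 0.00174 and 0.000484). Of 14 Wnt antagonists, 4 were higher and 1 lower without array 2. The lower one was Frzb, a secreted antagonist of chondrocytes, at 6.11 and 3.48 against 9.27 and 9.34 (-4.51 ± 0.729, adjusted p = 0.0510; array 1 alone -3.19, adjusted p = 4.8e-05). Sfrp4, another secreted antagonist, read 10.16 and 9.19 against 7.19 and 7.76 (array 1 alone 2.68, adjusted p = 0.000608). Of 28 BMP and TGF-beta genes, 6 were higher and 5 lower without array 2. Bmp6, a ligand of hypertrophic chondrocytes, read 7.07 and 5.55 against 8.83 and 8.59 (array 1 alone -1.65, adjusted p = 0.00167). Timp1, a protease inhibitor, read 10.67 and 8.72 against 12.27 and 12.24, and Mmp3, stromelysin, read 10.88 on BM-SSC array 1 but 4.96 on array 2, against 4.99 and 5.93. The protease Mmp3 was thus above the Osx+ range on array 1 and at its lower end on array 2.

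**Figure D5:**
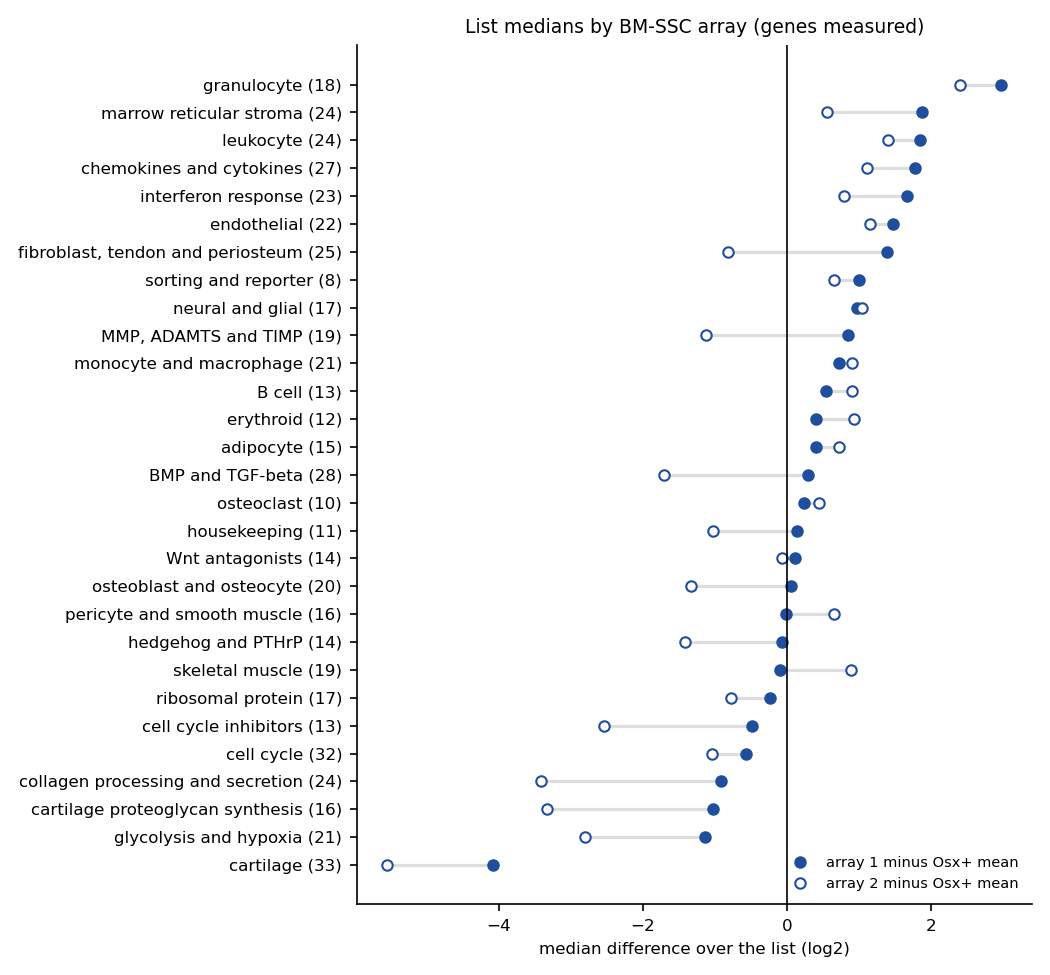
Median difference from the Osx+ mean over each gene list, for BM-SSC array 1 (filled) and BM-SSC array 2 (open), ordered by array 1; the number of genes measured stands in brackets. Cartilage lies lowest on both arrays at -4.08 and -5.55, granulocyte genes lie highest at 2.98 and 2.40, and lists of strongly expressed matrix genes are shifted to the left on array 2.

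Genes outside the lists were also among the largest decreases. Panx3, a pannexin channel of hypertrophic chondrocytes and osteoblasts, read 5.21 and 3.19 against 12.27 and 12.21 (-8.04 ± 0.663, adjusted p = 0.00369; array 1 alone -7.03). Nid2, the basement membrane protein nidogen-2, read 5.60 and 3.84 against 11.31 and 11.29 (-6.58 ± 0.719, adjusted p = 0.0115; array 1 alone -5.69). Fxyd3, a regulator of the sodium pump, read 3.92 and 4.55 against an Osx+ mean of 11.05 (-6.82 ± 0.370, adjusted p = 0.00122; array 1 alone -7.14). All 3 separated the groups on every array. Further called genes, chosen after their values were seen, included Col27a1, a fibrillar collagen of cartilage, at 8.32 and 7.43 against 12.75 and 12.54, Chadl, a chondroadherin relative, at 6.07 and 6.71 against 10.48 and 10.87, Trpv4, a calcium channel of chondrocytes, at 5.39 and 6.15 against 9.29 and 9.60, and Sox8, a relative of Sox9, at 3.86 and 3.24 against 7.25 and 7.37. Each of these 4 had an adjusted p between 0.00388 and 0.0175.

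Probe sets of the same gene were compared as a technical check. Of the 150 genes called with all arrays, 74 had more than 1 probe set, with 125 other probe sets between them. Of those, 98 differed in the same direction and 35 were themselves called. Among the 15 called cartilage genes, 4 had other probe sets, and 3 of these 5 probe sets were called lower.

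The cartilage genes were also set beside the other populations on the same arrays. The mean level of the 33 genes was 7.03 and 6.12 in BM-SSCs, 11.06 and 11.11 in Osx+ cells, 7.93 and 8.10 in CD51+ BMSCs, 6.48 and 5.19 in P-SSCs, 6.87 in Nes+ BMSCs, and 3.94 and 3.83 in CD45+ cells. Osx+ cells were highest, and BM-SSCs overlapped P-SSCs. Cnmd, at 13.65 and 13.63 in Osx+ cells, read 10.48 and 10.53 in CD51+ BMSCs, 4.65 and 4.87 in P-SSCs and 4.78 in Nes+ BMSCs. Col10a1 read 6.35 and 6.70 in CD51+ BMSCs and 4.55 and 5.31 in P-SSCs, against 12.25 and 12.31 in Osx+ cells. Sp7 read 5.05 and 5.26 in CD51+ BMSCs, 6.42 and 6.81 in P-SSCs, 7.71 in Nes+ BMSCs and 4.30 and 4.05 in CD45+ cells. Levels of Sp7 in BM-SSCs, at 8.15 and 7.11, thus lay next to those of Osx+ cells, and their difference from CD51+ BMSCs was 2.48 and was not called (adjusted p = 0.0592).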

How the data were processed

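The authors labelled RNA of sorted cells, hybridised it to Affymetrix mouse arrays and, per the methods, normalized the scans together with RMA in Partek. The deposited values are log2 RMA values per probe set, with no detection calls or read depth, so the number of arrays limits the precision. The submitters' processing notes name limma.

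Here 45037 probe sets were tested after 64 control probe sets were left out. Groups followed the sample titles. limma 3.58.1 in R 4.3.3 fitted 1 mean per population to the 11 arrays, which left 5 residual degrees of freedom beside a prior of 2.65, with Benjamini-Hochberg adjustment over all probe sets at 0.05. An exact permutation test of 2 arrays against 2 cannot go below p = 0.333. The script was tested on simulated data. Platform annotation gave 34945 probe sets 1 gene symbol, 932 several and 9160 none; 34741 of the single symbols matched RefSeq. Each of 18193 genes was represented by its brightest probe set on average. Genes were named if they marked the sorts or were among the 15 largest called differences in a direction with arrays that did not overlap. The 6 largest of a list, all called cartilage genes and the receptors the study names could also be named. Some list members outside these rules, such as Mpo, Chad and Sox5, were named as well. The genes and lists were chosen with earlier results of these data known. Nothing shows how separate the repeats were, so p-values measure only the spread between arrays. Left-out arrays, other scalings, filters, array weights and blocks were tried.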

Additional observations from a re-analysis of the deposited data

How the results depend on the processing

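The 263 probe sets lower and 14 higher in BM-SSCs became 128 lower with quantile normalization, 9 higher with a variance trend and robust fit, 154 lower and 3 higher with array weights, 165 lower and 7 higher among brighter probe sets, 146 lower and 8 higher with 1 probe set per gene, 540 lower and 161 higher without the P-SSC arrays or without P-SSC array 2 alone (both chosen after seeing the data), 2847 lower and 1315 higher at an unadjusted p, and 3358 lower and 3221 higher without array 2 of BM-SSCs and P-SSCs. With the 4 arrays alone (2 residual degrees of freedom) limma called 0 in either direction, while 2009 were lower and 808 higher at an unadjusted p under 0.05. Leaving out 1 array at a time gave 19 to 1644 lower and 0 to 545 higher. The 15 cartilage genes became 0 with the 4 arrays alone, 29 without array 2 of both, 23 at an unadjusted p, and 7 to 17 with 1 array left out. The 0 leukocyte genes became 16 without array 2 of both, 17 at an unadjusted p, 1 without the P-SSC arrays, and 0 to 1 with 1 array left out. Apart from the blocks described next, other settings moved these counts by less than 1.5 times.

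The replicate numbers were not taken to pair the samples: by number, deviations of the BM-SSC arrays correlated at r = -0.267 with the Osx+ and at r = 0.784 with the P-SSC arrays, whose array 2 is the narrow one in both. A replicate block gave 197 probe sets lower and 6 higher, with 15 cartilage and 0 leukocyte genes, and blocking with the Osx+ numbers crossed, chosen after seeing the data, gave 224 and 9. Of 120 genes named, 46 were called; 22 kept the call with quantile normalization, 40 with median centring, 9 without Osx+ array 1, 8 without Osx+ array 2 and 46 without array 2 of both. Of the same 46, 31 kept the call with a variance trend and robust fit, 28 with array weights and 0 with the 4 arrays alone. No called gene changed direction in any setting. The cause of these shifts was not tested.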

Other observations

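3 further gene groups were put together after the values were seen, so their counts are descriptions only. The first held enzymes of cholesterol synthesis and 3 genes of sterol uptake and control. In 19 of the 20 genes measured both BM-SSC arrays read below both Osx+ arrays, beside 24.7% of all genes, and the exception was Srebf2. Of the 20, 5 were lower with all arrays, and 18 without array 2, beside 0.781% and 9.71% of all genes. The median difference was -2.51 for array 1 and -2.75 for array 2. The group's mean level lay between 8 and 10 on both Osx+ arrays. All genes with an Osx+ mean of 8 to 10 had medians of -0.23 and -2.31, and 2.42% of them were called lower with all arrays. Genes at this level tend to read low on array 2, so the shares of all genes given above are not matched for level. Sqle, squalene epoxidase, read 6.96 and 5.20 against 9.76 and 9.99 (-3.79 ± 0.539, adjusted p = 0.0309 in limma; array 1 alone -2.91). Hsd17b7, which acts late in the pathway, read 6.48 and 6.53 against 9.37 and 9.20 (-2.78 ± 0.367, adjusted p = 0.0236; array 1 alone -2.80). Stard4, a sterol carrier, read 5.68 and 5.92 against 8.55 and 8.53 (-2.73 ± 0.323, adjusted p = 0.0161; array 1 alone -2.85). The remaining calls were Idi1 and Mvd, both early enzymes. Dimmer probe sets of Cyp51, Fdft1 and Lss were also called lower in limma with all arrays (adjusted p = 0.00399, 0.0189 and 0.0167). Srebf2, the transcription factor that drives the pathway, read 6.31 and 7.52 against 6.98 and 7.22 and was not called with all arrays (adjusted p = 0.858) but was lower without array 2 (-0.79, adjusted p = 0.0278). Its other, dimmer probe set read 6.23 and 4.24 against 8.30 and 8.73 (-3.28, adjusted p = 0.197; array 1 alone -2.28, adjusted p = 0.000587).

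Genes of sensory neurons were prominent on BM-SSC array 1. The mean level of 22 such genes was 6.61 on BM-SSC array 1 and 4.84 on array 2, against 3.92 and 3.68 in Osx+ cells, at most 4.04 in CD51+ BMSCs, 4.11 and 4.63 in P-SSCs and 4.35 in Nes+ BMSCs. Nefl, neurofilament light chain, read 9.62 and 5.70 against 3.14 and 2.32. Calcb, a calcitonin gene-related peptide, read 8.89 and 4.17 against 3.87 and 3.08. Tac1, the substance P precursor, read 11.91 and 5.36 against 7.49 and 6.45, so array 2 was below the Osx+ arrays. The median difference over the group was 2.65 for array 1 and 1.16 for array 2. Elavl4 was the 1 member called with all arrays, beside 0.044% of all genes, and its other probe sets were not called.

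Among 14 epithelial genes, 4 were lower and none was higher with all arrays, beside 0.781% and 0.044% of all genes. Krt16, a keratin of stressed epidermis, read 3.27 and 4.49 against 9.32 and 8.69 (-5.13 ± 0.713, adjusted p = 0.0281; array 1 alone -5.73). Dsp, Sfn and Perp, genes of desmosomes and epidermal differentiation, read 2.55 and 3.08 against 5.72 and 6.40, 3.43 and 3.87 against 6.31 and 6.25, and 3.74 and 4.35 against 6.69 and 6.76 (array 1 alone -3.51, -2.85 and -2.98). Krt5 and Krt14, the basal keratins, read 5.37 and 6.23 against 5.17 and 4.65, and 3.59 and 4.60 against 4.10 and 4.15, and were not called.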
